A study of Homo sapiens with 10 samples.

Results

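The sites of KAP1 and of Cdk9 were compared in HCT116, a long-established line of human colorectal carcinoma, from the peak list of 1 KAP1 library and the peak list of 1 Cdk9 library. All peaks on chromosomes 1 to 22 were taken, which gave 60660 KAP1 peaks and 118666 Cdk9 peaks out of 681093 autosomal peaks in the 5 lists of the series that were used. The other 3 lists hold total RNA polymerase II (Pol II), Larp7 and Hexim1, and the remaining libraries (Input, H3K27ac, H3K4me1, H3K4me3 and Ser5P Pol II) were not analysed here. A peak was called shared when it overlapped a peak of the other list by at least 1 bp, and KAP1-only or Cdk9-only when it did not; these names say nothing of the other 3 lists. A coding promoter was the annotated 5′ end of a protein-coding gene with 1 kb on each side, and there were 19222 of them.

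Both libraries came from cells grown in DMEM with fetal bovine serum, with no treatment, genotype change or time point in the labels. They were crosslinked with 1% formaldehyde for 10 min and sheared by 50 min of sonication into chromatin fragments of 100 to 300 bp. An Abcam antibody was used for KAP1 and a Santa Cruz antibody for Cdk9. Each antibody had 1 library, so no value below has a replicate check, and exact (Clopper-Pearson) 95% intervals, given in parentheses or as ranges, cover counting error only. The labels call the cell type endothelial, whereas the line is of epithelial origin. Pol II was at the promoters of 12 of 20 colon epithelium genes and of 6 of 14 endothelial genes in lists drawn up for this comparison, so these lists do not separate the names. The KAP1 list covered 45.5 Mb (1.58% of the autosomes) with a median peak width of 515 bp, and the Cdk9 list covered 77.9 Mb (2.70%) with a median of 428 bp. Of KAP1 peaks 14.1%, and of Cdk9 peaks 4.46%, had a deposited −log10 q of 5 or more. The depth of the libraries is unknown.

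KAP1, the product of TRIM28, is a scaffold protein that KRAB zinc finger proteins bring to chromatin, where it can recruit silencing enzymes; it has also been described at promoters of active genes. Cdk9 is the kinase of P-TEFb, which pairs it with cyclin T and phosphorylates Pol II and its pausing factors so that paused polymerase moves into the gene body. A pool of P-TEFb is held inactive by the 7SK small nuclear ribonucleoprotein, which contains 7SK RNA, Larp7 and Hexim1. The question asked of the lists was where the scaffold and the kinase are found together and where each is found without the other.

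The reference sequence under the leading promoter peaks is shown first, to show the bases behind the leading members of each promoter class. Each is up to 300 bases about the middle of the peak named below, kept inside the peak and trimmed to the longest run outside annotated UTRs, in the gene's own direction, from the hg19 (GRCh37) reference, with CpG dinucleotides in capitals. The promoter of DHX32 carried both factors, ZNF534 and LMBR1L carried KAP1 without Cdk9, and TCF7L2, SLC35B1 and GUCA2B carried Cdk9 without KAP1 in the promoter window. GUCA2B was added after the values were seen, as the first of these whose Cdk9 peak itself met no KAP1 peak.
DHX32, minus strand, chr10:127585006-127585095: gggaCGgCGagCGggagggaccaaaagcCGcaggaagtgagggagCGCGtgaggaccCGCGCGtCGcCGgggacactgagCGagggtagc
ZNF534, plus strand, chr19:52932100-52932399: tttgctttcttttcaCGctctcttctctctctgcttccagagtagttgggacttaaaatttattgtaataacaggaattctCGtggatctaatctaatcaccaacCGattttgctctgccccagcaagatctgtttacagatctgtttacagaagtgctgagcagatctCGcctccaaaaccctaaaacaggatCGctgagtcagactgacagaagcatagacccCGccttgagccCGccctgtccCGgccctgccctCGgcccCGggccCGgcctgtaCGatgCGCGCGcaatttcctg
LMBR1L, minus strand, chr12:49504045-49504295: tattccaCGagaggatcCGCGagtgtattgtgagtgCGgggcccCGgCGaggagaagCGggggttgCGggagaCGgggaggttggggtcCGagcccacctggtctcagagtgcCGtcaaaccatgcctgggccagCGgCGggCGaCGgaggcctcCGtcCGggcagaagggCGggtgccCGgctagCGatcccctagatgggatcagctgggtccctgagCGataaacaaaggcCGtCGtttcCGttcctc
TCF7L2, plus strand, chr10:114711515-114711814: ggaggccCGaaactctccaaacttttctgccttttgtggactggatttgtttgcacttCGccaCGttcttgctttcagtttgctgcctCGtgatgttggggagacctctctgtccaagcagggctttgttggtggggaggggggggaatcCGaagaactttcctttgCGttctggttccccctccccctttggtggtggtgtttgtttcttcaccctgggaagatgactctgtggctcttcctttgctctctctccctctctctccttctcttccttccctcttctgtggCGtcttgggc
SLC35B1, minus strand, chr17:47785125-47785195: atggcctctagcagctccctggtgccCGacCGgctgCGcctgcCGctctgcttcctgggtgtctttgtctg
GUCA2B, plus strand, chr1:42618936-42619080: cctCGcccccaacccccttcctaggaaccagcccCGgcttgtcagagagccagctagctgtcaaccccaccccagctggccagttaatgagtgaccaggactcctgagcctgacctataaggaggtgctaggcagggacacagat
The DHX32 stretch held 12 CpG in its 90 bases, the 251 bases of LMBR1L held 24, the 71 bases of SLC35B1 held 4 and the 145 bases of GUCA2B held 2. Over 300 bases each, ZNF534 held 15 CpG and TCF7L2 held 7. The TCF7L2 and SLC35B1 stretches lie over 1 kb past the 5′ end, since their Cdk9 peaks reach into the promoter window from its downstream edge, and these Cdk9 peaks overlap KAP1 outside the window, so as peaks they are shared.

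In the full lists, most KAP1 sites carried Cdk9, and most Cdk9 sites did not carry KAP1. Of the 60660 KAP1 peaks, 46283 (76.3%, 76.0 to 76.6) overlapped Cdk9 and 14377 (23.7%) were KAP1-only. Of the 118666 Cdk9 peaks, 44850 (37.8%, 37.5 to 38.1) overlapped KAP1 and 73816 (62.2%) were Cdk9-only. In bases, the overlap took 73.4% of the KAP1 territory and 42.9% of the Cdk9 territory. The Cdk9 list was the longer of the pair, and the size of this difference in shares depended on that. So did the minority of Cdk9 peaks with KAP1, which became a majority at equal length. With lists of equal length the shares can differ only through peaks that meet several peaks of the other list, so their order there is no evidence. With the Cdk9 list cut to the 60660 peaks of highest −log10 p, an alternative chosen after seeing the data, the share was 64.6% of KAP1 peaks and 61.8% of Cdk9 peaks. With 20000 peaks per list it was 52.8% of KAP1 peaks and 52.3% of Cdk9 peaks, and at a −log10 q of 5 or more in both lists, where the KAP1 list was the longer, it was 30.2% of KAP1 peaks and 48.5% of Cdk9 peaks.

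Shared sites were mostly the same place in both lists rather than broad domains that touched. A single KAP1 peak met a single Cdk9 peak in 40127 pairs, and their middles lay a median of 93 bp apart, with 25% within 34 bp and 95% within 530 bp. The KAP1 peak lay wholly inside the Cdk9 peak in 33.1% of these pairs, the Cdk9 peak lay inside the KAP1 peak in 15.7%, and 51.3% overlapped in part. The KAP1 peak was the wider of the pair in 37.5% (37.0 to 38.0). At most 5 Cdk9 peaks fell on a single KAP1 peak and at most 7 KAP1 peaks on a single Cdk9 peak.

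Peaks that carried both factors were wider and had higher deposited folds than those with a single factor. The fold deposited by the authors compares a peak with its background, and it was read only within its own list. The median width was 612 bp for KAP1 peaks with Cdk9 and 248 bp for KAP1-only peaks, a difference of 364 bp. For Cdk9 it was 755 bp with KAP1 and 276 bp for Cdk9-only, a difference of 479 bp. The median fold was 4.32 for KAP1 peaks with Cdk9 and 3.61 for KAP1-only peaks. Within the Cdk9 list it was 4.12 for peaks with KAP1 and 3.12 for Cdk9-only peaks. Peaks wider than 1000 bp made up 28.0% of KAP1 peaks with Cdk9 and 1.85% of KAP1-only peaks, and 37.0% of Cdk9 peaks with KAP1 and 4.66% of Cdk9-only peaks. A −log10 q of 5 or more was found for 17.5% of KAP1 peaks with Cdk9, 3.05% of KAP1-only peaks, 10.9% of Cdk9 peaks with KAP1 and 0.558% of Cdk9-only peaks. A wide peak covers more bases and can meet the other list more easily, so width and overlap are not independent measures.

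**Figure D1:**
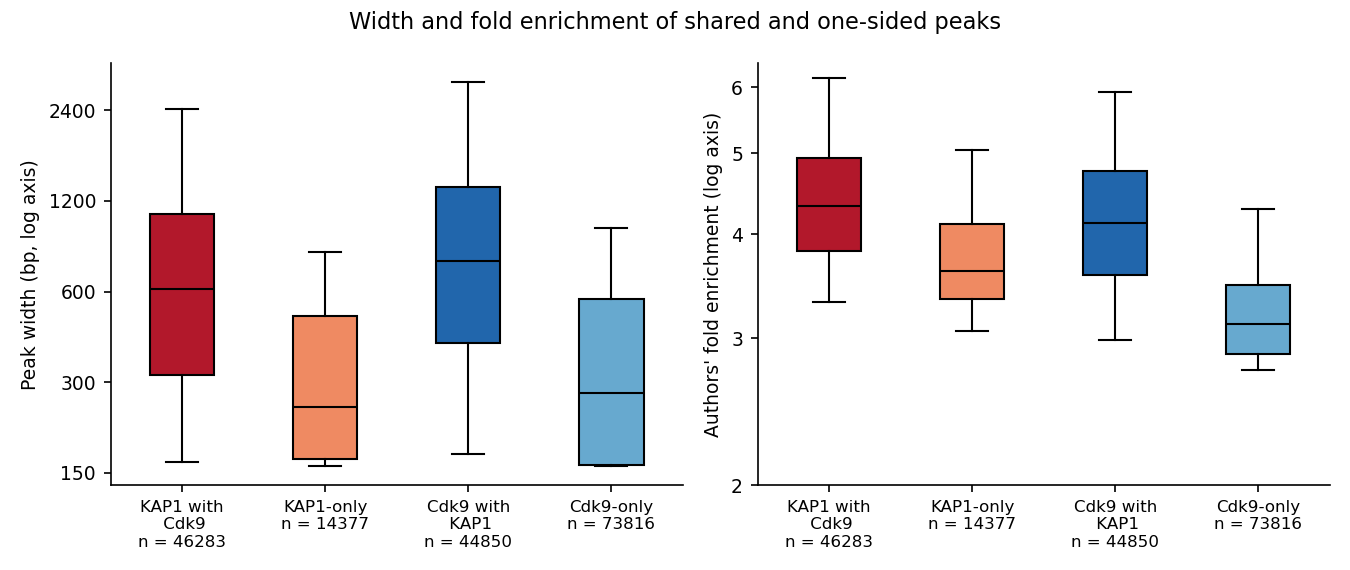
Width in bp (left) and the authors' fold enrichment (right), both on log axes, of KAP1 peaks with Cdk9, KAP1-only peaks, Cdk9 peaks with KAP1 and Cdk9-only peaks; the line is the median, the box the 25th to 75th percentiles and the whiskers the 5th to 95th. In both lists the shared peaks have the wider and higher box, with median widths of 612 bp (shared) and 248 bp (KAP1-only), and of 755 bp (shared) and 276 bp (Cdk9-only).

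The share of peaks with the other factor climbed with width, fold and GC content in both lists. Among KAP1 peaks, Cdk9 was present at 50.2% of the narrowest quintile and 98.3% of the widest. Among Cdk9 peaks, KAP1 was present at 8.89% of the narrowest quintile and 79.7% of the widest. By fold, the lowest and highest quintiles were at 47.9% and 93.1% for KAP1 peaks, and at 6.77% and 83.2% for Cdk9 peaks. The step with fold was seen among peaks of like width: in the middle width quintile, 41.1% of the KAP1 peaks of lowest fold and 98.2% of those of highest fold carried Cdk9, at median widths of 515 and 517 bp. In the middle width quintile of the Cdk9 list, 4.89% of the peaks of lowest fold and 86.1% of those of highest fold carried KAP1, at median widths of 426 and 430 bp. By the GC content of the 300 bases about the peak middle, Cdk9 was at 38.0% of the KAP1 peaks of lowest GC and 98.7% of those of highest GC, and KAP1 was at 6.23% and 89.9% of the Cdk9 peaks. Width, fold and GC content move together with the overlap, and their separate parts in it were not tested.

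**Figure D2:**
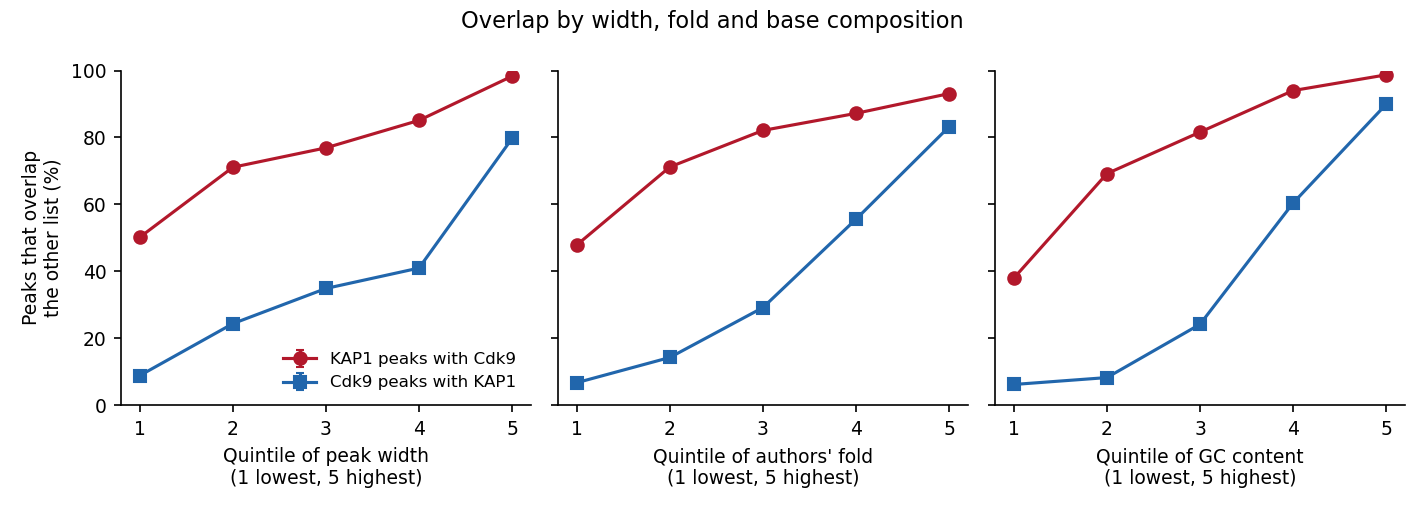
Percent of KAP1 peaks that overlap a Cdk9 peak and of Cdk9 peaks that overlap a KAP1 peak, by quintile of width, of the authors' fold and of GC content in the 300 bases about the peak middle; bars are exact 95% intervals. Both lines climb in all 3 panels, with KAP1 peaks of the highest GC quintile at 98.7% and Cdk9 peaks of the 2 lowest GC quintiles at 6.23% and 8.29%.

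Shared sites lay at promoters more often than sites with a single factor. The middle of a peak set its place, with coding promoters taking precedence over exons, exons over introns, and all of these over the space between coding genes. Coding promoters held 21.9% of KAP1 peaks with Cdk9 and 3.35% of KAP1-only peaks, and 22.2% of Cdk9 peaks with KAP1 and 1.67% of Cdk9-only peaks. The KAP1-only share was thus above the Cdk9-only share by 1.68 percentage points (1.29 to 2.08 from the outer bounds of the 2 intervals). Introns held 32.0% of KAP1 peaks with Cdk9, 46.2% of KAP1-only, 32.3% of Cdk9 peaks with KAP1 and 48.9% of Cdk9-only peaks. Exons held 17.8% of KAP1 peaks with Cdk9, 9.65% of KAP1-only, 17.0% of Cdk9 peaks with KAP1 and 5.43% of Cdk9-only peaks. The space between coding genes held 28.4% of KAP1 peaks with Cdk9, 40.8% of KAP1-only, 28.5% of Cdk9 peaks with KAP1 and 44.0% of Cdk9-only peaks. The median distance from the peak middle to the nearest coding 5′ end was 15428 bp for KAP1 peaks with Cdk9, 33626 bp for KAP1-only, 15488 bp for Cdk9 peaks with KAP1 and 36255 bp for Cdk9-only peaks. In the full lists both kinds of unshared peak were therefore mostly distal and intronic or intergenic. Their promoter share was higher when the lists were cut to stronger peaks and the peaks classed anew. With 20000 peaks per list, coding promoters held 18.4% of KAP1-only and 16.3% of Cdk9-only peaks. At a −log10 q of 5 or more in both lists, they held 39.4% of KAP1-only and 29.6% of Cdk9-only peaks.

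Seen from the place, a KAP1 peak at a coding promoter carried Cdk9 in 95.5% of cases, and one in an intron in 69.0%. A Cdk9 peak at a coding promoter carried KAP1 in 89.0% of cases, and one in an intron in 28.6%. Exons were between these, at 85.6% for KAP1 and 65.5% for Cdk9. Away from promoters and within 1 kb of a coding 3′ end, 81.8% of KAP1 peaks and 51.8% of Cdk9 peaks were shared. More than 100 kb from any coding 5′ end, 66.6% of KAP1 peaks still carried Cdk9 and 26.3% of Cdk9 peaks carried KAP1.

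KAP1-only peaks were often near a Cdk9 peak, and Cdk9-only peaks were farther from KAP1. The median gap to the nearest peak of the other list was 3162 bp for KAP1-only peaks and 11496 bp for Cdk9-only peaks. It was under 1000 bp for 21.1% of KAP1-only and 6.87% of Cdk9-only peaks, under 5000 bp for 61.9% of KAP1-only and 31.4% of Cdk9-only peaks, and over 50 kb for 3.57% of KAP1-only and 18.0% of Cdk9-only peaks. The Cdk9 list held more peaks for a KAP1 peak to be near.

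The unshared sites also carried the other 3 factors less often. Pol II overlapped 78.2% of KAP1 peaks with Cdk9 (77.8 to 78.6) and 19.5% of KAP1-only peaks, and 78.4% of Cdk9 peaks with KAP1 and 11.6% of Cdk9-only peaks. Larp7 was at 98.4% of KAP1 peaks with Cdk9 and 66.8% of KAP1-only peaks, and at 98.4% of Cdk9 peaks with KAP1 and 45.8% of Cdk9-only peaks. Hexim1 was at 98.9% of KAP1 peaks with Cdk9, 73.7% of KAP1-only, 99.0% of Cdk9 peaks with KAP1 and 54.7% of Cdk9-only peaks. None of the 3 was at 18.4% of KAP1-only peaks and 34.9% of Cdk9-only peaks. The Pol II difference was seen at like width too: among peaks of 401 to 600 bp, Pol II was at 77.3% of KAP1 peaks with Cdk9 and 17.3% of KAP1-only peaks, and at 75.4% of Cdk9 peaks with KAP1 and 12.1% of Cdk9-only peaks.

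**Figure D3:**
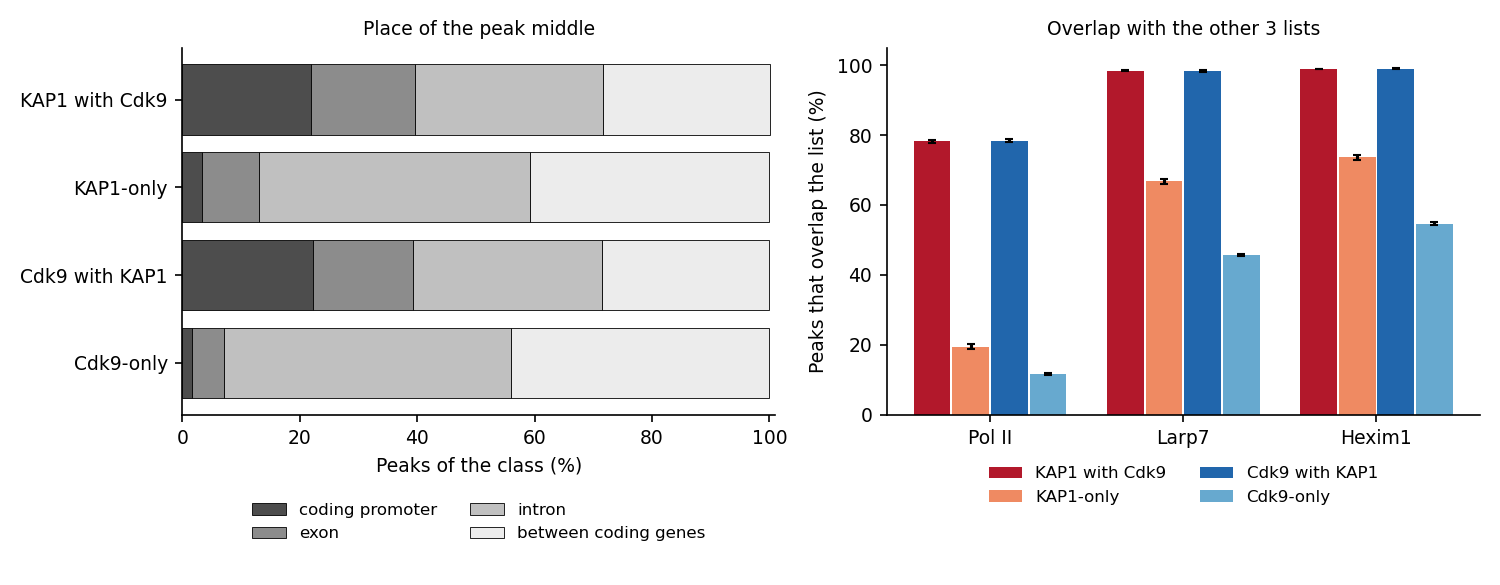
Left, the place of the peak middle as percent of each class of peaks; right, the percent of each class that overlaps Pol II, Larp7 or Hexim1, with exact 95% intervals. Coding promoters hold 21.9% and 3.35% of shared and unshared KAP1 peaks and 22.2% and 1.67% of shared and unshared Cdk9 peaks, and Pol II is at 19.5% of KAP1-only and 11.6% of Cdk9-only peaks.

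The bases under the peaks differed in the same direction. The median GC content of the 300 bases about the middle was 65.7% for KAP1 peaks with Cdk9, 54.7% for KAP1-only, 65.0% for Cdk9 peaks with KAP1 and 51.0% for Cdk9-only peaks, against 62.7% in 300 bases at all coding promoters. The median number of CpG was 16 in KAP1 peaks with Cdk9, 7 in KAP1-only, 15 in Cdk9 peaks with KAP1 and 6 in Cdk9-only peaks. The GC box GGGCGG, the core of Sp1-type sites, was on either strand in 47.3% of KAP1 peaks with Cdk9, 19.2% of KAP1-only, 46.4% of Cdk9 peaks with KAP1 and 14.9% of Cdk9-only peaks, and in 54.4% of coding promoters. The AP-1 letters TGANTCA were in 3.44% of KAP1 peaks with Cdk9, 5.80% of KAP1-only, 3.82% of Cdk9 peaks with KAP1 and 6.54% of Cdk9-only peaks, and in 5.90% of coding promoters. The ETS letters CCGGAAG were in 5.40% of KAP1 peaks with Cdk9, 2.50% of KAP1-only, 5.48% of Cdk9 peaks with KAP1 and 1.59% of Cdk9-only peaks, and in 12.1% of coding promoters. The TATA letters TATAAA were in 2.67% of KAP1 peaks with Cdk9, 9.65% of KAP1-only, 3.12% of Cdk9 peaks with KAP1 and 12.6% of Cdk9-only peaks, and in 9.29% of coding promoters. Over all peaks, GC-rich letters thus followed the GC content of the class and AT-rich letters the reverse, and a match is not a bound site. Among peaks at coding promoters the ETS letters differed little, at 9.64% of KAP1 peaks with Cdk9 and 9.75% of KAP1-only. For Cdk9 they were at 9.96% of peaks with KAP1 and 8.90% of Cdk9-only. The GC box still differed there, at 72.0% of KAP1 peaks with Cdk9 and 41.1% of KAP1-only, and at 71.3% of Cdk9 peaks with KAP1 and 40.6% of Cdk9-only.

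Within the unshared classes, the peaks of best support still carried the 7SK factors. A −log10 q of 5 or more was found for 438 KAP1-only and 412 Cdk9-only peaks, a cut chosen for this description after the values were seen. They were narrow, with median widths of 200 bp for KAP1-only and 226 bp for Cdk9-only peaks. Larp7 was at 95.2% of these KAP1-only peaks (92.8 to 97.0) and 85.7% of these Cdk9-only peaks (81.9 to 88.9). Hexim1 was at 95.4% of the KAP1-only and 93.7% of the Cdk9-only peaks, and Pol II at 40.6% of the KAP1-only (36.0 to 45.4) and 52.7% of the Cdk9-only peaks (47.7 to 57.6). Their median GC content was 61.0% for KAP1-only and 61.3% for Cdk9-only peaks.

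The 5 KAP1-only peaks of highest −log10 p had values of 13.2 to 14.9 and were 221 to 375 bp wide. They were an intronic peak nearest CELF4 (chr18:35104583-35104957, fold 8.54), an intronic peak nearest PRKCZ (chr1:2029007-2029230, fold 7.82), a peak 949 bp upstream of HLF (chr17:53341236-53341508, fold 7.67), a peak 209170 bp from the 5′ end of KHDRBS3 (chr8:136678759-136678979, fold 7.93) and the LMBR1L promoter peak (chr12:49504045-49504295, fold 7.02). CELF4 encodes an RNA-binding splicing regulator, PRKCZ an atypical protein kinase C and HLF a bZIP transcription factor. All 5 peaks overlapped Larp7 and Hexim1, and all but the one near KHDRBS3 overlapped Pol II. A Cdk9 peak lay elsewhere in the promoter window of HLF, so HLF is not among the KAP1-only promoters below.

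The 5 Cdk9-only peaks of highest −log10 p had values of 12.3 to 18.9 and were 222 to 394 bp wide. The highest lay in an intron 16421 bp past the 5′ end of ANAPC7, a subunit of the anaphase-promoting complex (chr12:110824917-110825310, fold 10.6). The next were a peak 625905 bp upstream of CADM1 (chr11:116001469-116001690, fold 7.94), an intronic peak 626639 bp upstream of the 5′ end of DLC1 (chr8:14088618-14088897, fold 8.31), an exonic peak nearest IGDCC3 (chr15:65677241-65677553, fold 8.00) and an intronic peak 781398 bp from C9orf72 (chr9:28355124-28355399, fold 7.79). All 5 overlapped Pol II, 4 overlapped Hexim1 and 1, nearest IGDCC3, overlapped Larp7. A nearest gene at such distances is a landmark only.

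Among shared sites, the highest −log10 p of both lists was at the same place on chromosome 21, far from coding genes, with a KAP1 value of 72.1 (chr21:9825375-9827552, fold 4.15) and a Cdk9 value of 96.8 (chr21:9825360-9827568, fold 6.18). The KAP1 fold at that place was below the median of 4.32 for KAP1 peaks with Cdk9. No regions of high background were removed from the lists here. The next KAP1 peak was at the DHX32 promoter (47.4), and the next Cdk9 peaks were in introns nearest PMF1 (65.0) and MYO1D (48.2). The widest peaks, listed after their values were seen, were domains of both factors. The widest KAP1 peak was 31428 bp long, over PLEC (chr8:144989050-145020477), and 31420 bp of it were covered by Cdk9. The widest Cdk9 peak was 33857 bp long at the same gene, with 33113 bp covered by KAP1. PLEC encodes plectin, which links cytoskeletal filaments. The next Cdk9 peak in width was 28726 bp long at FASN, the fatty acid synthase gene (chr17:80033462-80062187), and 25389 bp of it were covered by KAP1.

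At coding promoters the full lists nearly coincided. Both factors were at 12255 of the 19222 promoters (63.8%, 63.1 to 64.4), KAP1 without Cdk9 at 474 (2.47%, 2.25 to 2.70), Cdk9 without KAP1 at 1295 (6.74%, 6.39 to 7.10) and neither at 5198 (27.0%). Thus 96.3% of the KAP1 promoters carried Cdk9, and 90.4% of the Cdk9 promoters carried KAP1. These are the background shares against which the gene groups below are read. Which single-factor class was larger depended on the length of the lists. With the Cdk9 list cut to the length of the KAP1 list, 1010 promoters had KAP1 without Cdk9 and 730 had Cdk9 without KAP1. How nearly the lists coincided depended on the cut as well. With 20000 peaks per list, 2100 of 8295 KAP1 promoters lacked Cdk9 and 1913 of 8108 Cdk9 promoters lacked KAP1. At a −log10 q of 5 or more, 2885 of 4902 KAP1 promoters lacked Cdk9 and 971 of 2988 Cdk9 promoters lacked KAP1.

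Where both were present, their peaks sat just inside the gene. The middle of the KAP1 peak was a median of 225 bp past the 5′ end and that of the Cdk9 peak 202 bp past it. The KAP1 middle minus the Cdk9 middle along the gene had a median of 10 bp, with 25th and 75th percentiles of −72 and 103 bp. The folds of the 2 peaks had a Spearman rho of 0.47 across these 12255 promoters, which share both libraries and whose values are not independent.

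In Pol II, Larp7, Hexim1 and base composition, promoters with a single factor were intermediate between those with both and those with neither. Pol II was at 67.1% of KAP1-only promoters (62.7 to 71.3) and 61.3% of Cdk9-only promoters (58.6 to 64.0), against 96.7% of those with both and 16.4% of those with neither. The difference between KAP1-only and Cdk9-only promoters, 5.78 percentage points, had outer bounds of −1.32 and 12.7, taken from both intervals and so wider than the counting error of the difference. It was 9.43 points (3.48 to 15.2) with 250 bp on each side of the peak middle, 10.4 (3.17 to 17.3) with promoter windows of 2 kb, 1.83 (0.00221 to 3.84) at a −log10 q of 5 or more and −1.89 (−5.99 to 2.21) with 20000 peaks per list, so its direction depended on the setting. Larp7 was at 83.8% of KAP1-only, 78.1% of Cdk9-only, 99.7% of both and 20.6% of neither. Hexim1 was at 94.1% of KAP1-only, 88.6% of Cdk9-only, 100.0% of both and 29.2% of neither. Where Pol II was present its median fold was 16.1 at KAP1-only promoters, 22.4 at Cdk9-only promoters, 45.4 at those with both and 11.1 at those with neither. The GC content of the promoter window had a median of 51.4% for KAP1-only, 51.6% for Cdk9-only, 58.8% for both and 44.9% for neither. The observed over expected CpG ratio had a median of 0.522 for KAP1-only, 0.472 for Cdk9-only, 0.700 for both and 0.231 for neither. Divergent genes did not follow this order: a second coding gene started in the opposite direction within 1 kb at 14.8% of KAP1-only promoters (11.7 to 18.3), 8.42% of Cdk9-only (6.96 to 10.1), 10.5% of both and 3.69% of neither.

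Promoters with a single factor were rare where Pol II was highest. In the quintile of Pol II promoters with the highest Pol II fold, 0.326% were KAP1-only and 1.45% were Cdk9-only, and 97.5% had both. The shares peaked in the second quintile, at 4.63% for KAP1-only and 9.56% for Cdk9-only. By GC content of the promoter they again peaked in the second quintile, at 5.49% for KAP1-only and 13.9% for Cdk9-only. In the quintile of highest GC 0.208% were KAP1-only and 0.858% Cdk9-only, and 98.1% of those promoters had both.

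**Figure D4:**
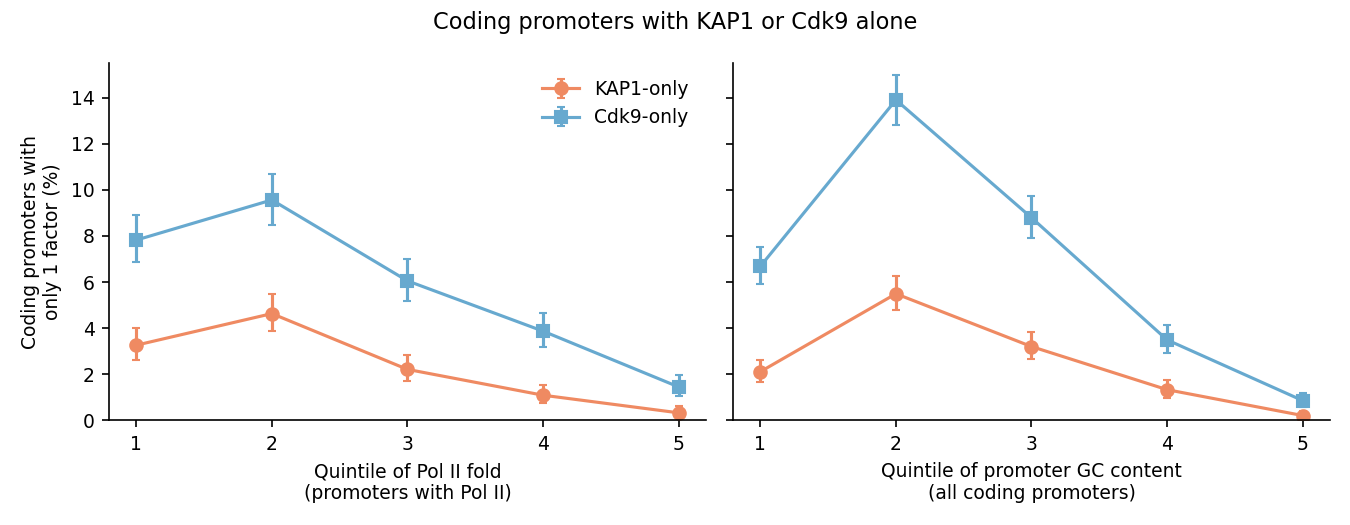
Percent of coding promoters with KAP1 but no Cdk9 and with Cdk9 but no KAP1, by quintile of Pol II fold among promoters with Pol II (left) and by quintile of GC content among all coding promoters (right); quintile 1 is the lowest and bars are exact 95% intervals. Both classes are highest in the second quintile, and in the highest Pol II quintile KAP1-only promoters are at 0.326% and Cdk9-only at 1.45%.

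Many promoters with a single factor had the other nearby. Within 2 kb of the 5′ end the other factor was found for 25.3% of KAP1-only promoters and 14.5% of Cdk9-only promoters. Within 5 kb it was found for 54.0% of KAP1-only and 34.4% of Cdk9-only promoters, and within 10 kb for 75.7% of KAP1-only and 52.6% of Cdk9-only promoters. The peak at the promoter itself met the other list outside the window at 6.12% of KAP1-only and 6.64% of Cdk9-only promoters. In the bodies of genes of at least 4 kb, from 2 kb past the 5′ end on, 77.9% of the KAP1-only promoter genes had a Cdk9 peak, against 82.7% of genes with both at the promoter and 64.1% with neither. A KAP1 peak was in 58.0% of the Cdk9-only promoter genes, against 63.4% with both and 44.9% with neither.

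The 8 KAP1-only promoters of highest KAP1 fold included several of low or no Pol II. For the genes named here and below, a Pol II peak counted only where it met the promoter window. ZNF534, a KRAB zinc finger gene, was first with a KAP1 fold of 7.73 (chr19:52932016-52932484, middle 151 bp upstream of the 5′ end); it had no Pol II peak, and the nearest Cdk9 peak was 5363 bp from the 5′ end. LMBR1L, which encodes a membrane protein, followed with a KAP1 fold of 7.02 and a Pol II fold of 11.6. CIR1, which encodes a corepressor of Notch signalling, had a KAP1 fold of 6.74 in a peak shared with its divergent neighbour SCRN3, and a Pol II fold of 11.4. ACTL8, an actin-like gene, had a KAP1 fold of 6.71 and no Pol II peak. ENSG00000267173, whose window shares the peak with ZNF285, had 6.59 and no Pol II peak. COQ6, an enzyme of coenzyme Q synthesis, had 6.50 in a peak shared with FAM161B, with a Pol II fold of 94.9. APOBEC3A, a cytidine deaminase gene, had 6.42 and no Pol II peak, and SNRPB, a core spliceosomal protein gene, had 6.37 with a Pol II fold of 69.2. Larp7 and Hexim1 were present at all 8. LMBR1L, COQ6 and APOBEC3A had a Cdk9 peak 1548 to 2253 bp from the 5′ end. With no Cdk9 allowed within 5 kb, a selection made after the values were seen, SYF2, a splicing factor gene, joined ZNF534, CIR1, ACTL8, ENSG00000267173 and SNRPB with a KAP1 fold of 6.03.

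Of the 8 Cdk9-only promoters of highest Cdk9 fold, 5 had a KAP1 peak just outside the promoter window. TCF7L2, a transcription factor of Wnt signalling, was first with a Cdk9 fold of 7.94 in a peak of 1935 bp (chr10:114710698-114712632), and a KAP1 peak began 1113 bp from its 5′ end. SLC35B1, a solute carrier gene, had 7.65 with KAP1 at 1081 bp. BZW1, a regulator of translation initiation, had 7.17 with KAP1 at 1347 bp and a Pol II fold of 107. MAFF, a small bZIP factor gene, had 7.05 with KAP1 at 1015 bp. DNAJB6, a co-chaperone gene, had 6.95 with KAP1 at 1050 bp. In all 5 the Cdk9 peak itself overlapped that KAP1 peak. The Pol II peaks of TCF7L2, SLC35B1, BZW1 and DNAJB6 also had their middles 1092 to 1623 bp past the annotated 5′ end. MAFF had no Pol II peak in its promoter window, and Pol II farther past its 5′ end was not checked. Whether the annotated 5′ end is the start in use at these 5 genes was not tested. The other 3 had KAP1 farther off: GUCA2B, which encodes uroguanylin, had a Cdk9 fold of 7.15, no Pol II peak and KAP1 at 7428 bp. ADAMTS4, an aggrecanase gene, had 7.13 with KAP1 at 4906 bp, and C12orf57 had 6.79 with KAP1 at 2829 bp. With no KAP1 allowed within 5 kb, the leading genes were GUCA2B, TRPM1 (6.18), the histone gene H2BC4 (6.13, Pol II fold 74.8), PINLYP (6.12), ENSG00000272897 (5.96) and the mitochondrial ribosomal protein gene MRPL10 (5.96).

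At promoters with both, the highest KAP1 fold was 11.0 at the shared promoter of DHX32, a helicase gene, and FANK1 (KAP1 peak chr10:127584322-127585569), where the Cdk9 fold was 10.3. The next KAP1 folds were 10.6 at ACSL3, an acyl-CoA synthetase gene, 10.3 at ZNF264 and at UBR3, 10.1 at PDCD7 and 9.63 at MRTFA, with Cdk9 folds of 5.74 to 7.30 at these 5. The highest Cdk9 fold was 11.3 at HMGA2, an architectural chromatin protein gene, where the KAP1 fold was 6.13. PTMA, which encodes prothymosin alpha, had a Cdk9 fold of 10.6 and EREG, which encodes epiregulin, had 10.1. SREBF1, a regulator of lipid synthesis genes, had 9.71. The KAP1 fold was 6.23 at PTMA, 4.49 at EREG and 6.57 at SREBF1. DHX32 was the only gene named here from both orders, and folds of the 2 lists are not on a common scale.

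The genes of the factors themselves mostly carried both. TRIM28 had a KAP1 fold of 6.98 and a Cdk9 fold of 5.67, and CDK9 had 5.57 for KAP1 and 5.01 for Cdk9. CCNT2, a cyclin T gene, had 6.98 for KAP1 and 5.44 for Cdk9. HEXIM1 had 4.37 for KAP1 and 5.33 for Cdk9, and MEPCE, the 7SK capping enzyme gene, had 3.14 for KAP1 and 6.22 for Cdk9. CCNT1 and LARP7 had neither within 1 kb. The 7SK RNA gene RN7SK lay under a Cdk9 peak of fold 4.10 (chr6:52859559-52860964), with Larp7 and Hexim1. The Pol II peak within 1 kb (chr6:52859976-52860217) ended upstream of the 5′ end of RN7SK. The nearest KAP1 peak was 32803 bp away.

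Gene groups were read against the background of 2.47% KAP1-only, 6.74% Cdk9-only and 63.8% both. The inducible groups given next mostly had both factors, except the interferon genes, of which 13 of 22 had neither. For the interferon genes, the intervals of both single-factor classes (1.12 to 29.2) hold the background shares. Of 35 immediate early genes, 33 had both and 1, PPP1R15A, was KAP1-only (fold 4.12, Pol II fold 86.0). Of 20 heat shock genes, 17 had both and HSPA1B was KAP1-only (fold 3.75). Of 24 p53 target genes, 20 had both and TP53I3 was Cdk9-only (fold 4.95). Of 20 NF-kB response genes, 14 had both and 6 neither, and of 20 Wnt target genes, 17 had both and 3 neither. In 22 interferon response genes, 5 had both, 2 were KAP1-only (9.09%, 1.12 to 29.2), 2 were Cdk9-only (9.09%) and 13 had neither, with IRF9 and MX1 KAP1-only (folds 3.06 and 4.50) and MX2 Cdk9-only (2.90).

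Metabolic and regulatory groups were mostly at both as well. Of 23 cholesterol synthesis genes, 20 had both, MSMO1 was KAP1-only (fold 4.15) and FDPS Cdk9-only (2.95). Of 17 glycolysis genes, 14 had both, HK1 was KAP1-only (3.42) and ALDOC Cdk9-only (3.33). Of 20 genes of the ATF4 and unfolded protein response, 13 had both, and PPP1R15A, SHMT2 (fold 4.72) and SLC3A2 (3.62) were KAP1-only, which is 15.0% (3.21 to 37.9), while TRIB3 was Cdk9-only (2.81). Of 28 cell cycle genes, 24 had both, CCNB2 was KAP1-only (3.33) and CDK2 Cdk9-only (4.64). Of 33 transcription elongation genes, 26 had both and 3 were Cdk9-only, namely EAF2 (2.90), RTF1 (2.86) and SUPT6H (3.08). Of 20 genes of KAP1 partners, 16 had both, and ATF7IP (3.95) and UHRF1 (2.79) were Cdk9-only. Of 22 imprinted genes, 19 had both and ZNF597 was KAP1-only (5.78).

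Cytosolic ribosomal protein genes were Cdk9-only more often than the background share. Of 79 cytosolic ribosomal protein genes, 50 had both, 3 were KAP1-only and 12 (15.2%, 8.10 to 25.0) Cdk9-only, and all 12 had Pol II. The 3 with KAP1 alone were RPL10L (fold 5.28), RPL32 (3.54) and RPL9 (3.17). The 12 Cdk9-only genes ranged from a Cdk9 fold of 2.89 at RPS9 to 4.46 at RPL27. Of 78 mitochondrial ribosomal protein genes, 49 had both, 4 were KAP1-only and 10 (12.8%, 6.32 to 22.3) Cdk9-only, the highest MRPL10. The 4 with KAP1 alone were MRPL50 (5.36), MRPL33 (4.01), MRPL47 (3.78) and MRPS15 (3.35). Of 68 histone genes, 25 had both, 5 were KAP1-only and 16 (23.5%, 14.1 to 35.4) Cdk9-only. The 5 with KAP1 alone were H3C8 (4.72), H1-5 (4.62), H2AC13 and H2BC13 (3.96, in a common peak) and H2BC9 (3.74). Histone genes lie in clusters and near-identical copies can lose or share reads; neighbouring pairs such as H2AC12 and H2BC12 (4.70) or H2AC6 and H2BC4 (6.13) had the same peak, so these 16 are not separate sites. Of 38 proteasome genes, 25 had both, 4 (10.5%, 2.94 to 24.8) were KAP1-only and 3 Cdk9-only. The KAP1-only ones were PSMB5 (4.31), PSMB3 (3.73), PSMC2 (3.58) and PSMC4 (2.99), and the Cdk9-only ones were PSMB4 (3.72), PSMB11 (3.32) and PSMC6 (3.06). The lower bound for Cdk9-only cytosolic ribosomal protein genes lay above the background share, and that for mitochondrial ribosomal protein genes lay below it. The KAP1-only lower bound lay above the 2.47% background for protocadherin (4.27) and zinc finger (4.12) genes. It also did so for ATF4 and unfolded protein response (3.21) and proteasome (2.94) genes. No correction was made for the 26 gene lists read, so a bound past the background is weak evidence. No such reading is made for the histone genes, since their shared peaks make the interval too narrow. Among KAP1-only zinc finger genes, ZNF619 and ZNF620 also had the same KAP1 fold (3.75) and Pol II fold (46.9). The zinc finger interval may therefore be too narrow as well.

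Zinc finger genes, whose KRAB members encode the proteins that bring KAP1 to DNA, were mostly at both. Of 496 of them, 353 (71.2%) had both, 30 (6.05%, 4.12 to 8.52) were KAP1-only and 33 (6.65%, 4.62 to 9.22) Cdk9-only. The KAP1-only share was 7.32% (4.39 to 11.3) on chromosome 19 and 4.80% (2.50 to 8.23) elsewhere. Coding genes outside the group had 3.89% on chromosome 19 (2.88 to 5.12) and 2.26% elsewhere (2.05 to 2.50). In the last 2 kb of zinc finger genes, KAP1 was at 17.5% and Cdk9 at 19.9%, against KAP1 at 19.6% and Cdk9 at 26.1% of other coding genes. How much of this window is coding repeat and how much is 3′ UTR was not checked. On chromosome 19 alone, KAP1 was at 14.3% (10.2 to 19.4) and Cdk9 at 18.9% (14.1 to 24.3) of zinc finger genes, against KAP1 at 52.1% (49.1 to 55.1) and Cdk9 at 62.7% (59.7 to 65.6) of other coding genes there. These genes are near-copies of each other, so reads could be lost or shared between them.

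Other gene families and tissue groups differed widely in how many promoters had either factor. Of 398 olfactory receptor genes, 5 had both, 4 were KAP1-only, 15 Cdk9-only and 374 (94.0%) neither. The 4 with KAP1 alone were OR10S1 (fold 4.24), OR6J1 (3.42), OR4F6 (3.34) and OR10H1 (3.33), none of them with a Pol II peak. Of 53 protocadherin genes, 14 had both, 6 (11.3%, 4.27 to 23.0) were KAP1-only and 7 Cdk9-only. Of 39 HOX genes, 34 had both, HOXC4 was KAP1-only (4.31), and HOXA10 (3.04) and HOXC6 (2.68) were Cdk9-only. Of 20 colon epithelium genes, 9 had both and LGALS4 was KAP1-only (3.22). Of 14 endothelial genes, 7 had both, TIE1 was KAP1-only (4.50), and CLDN5 (3.53) and PLVAP (4.04) were Cdk9-only. Of 14 fibroblast and smooth muscle genes, 7 had both, and CNN1 (4.48) and TAGLN (2.79) were Cdk9-only. Of 14 blood cell genes, 4 had both and 10 neither, and of 15 genes of other tissues, 7 had both, 7 neither, and GFAP was KAP1-only (3.75).

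Along genes of at least 10 kb, the 2 lists ran close at the 5′ end and apart beyond it. In 2 kb windows over 14329 genes, KAP1 was at 69.2% of 5′ ends and Cdk9 at 73.4%, with both at 66.8%. In the window 3 kb past the 5′ end KAP1 was at 13.0% and Cdk9 at 21.3%, and in the gene middle KAP1 was at 11.6% and Cdk9 at 20.6%. At the 3′ end KAP1 was at 16.8% and Cdk9 at 23.6%, and 3 kb past the 3′ end KAP1 was at 16.0% and Cdk9 at 25.3%. Cdk9 without KAP1 was at 6.65% of 5′ ends, 10.6% of windows 3 kb past them, 11.0% of gene middles, 8.93% of 3′ ends and 11.3% of windows 3 kb past these. KAP1 without Cdk9 stayed between 2.00% and 2.43% in all 5 windows. The Cdk9 list was the longer, and the windows along genes were not counted with lists of equal length. The part of list length in the gap beyond the 5′ end was therefore not tested.

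**Figure D5:**
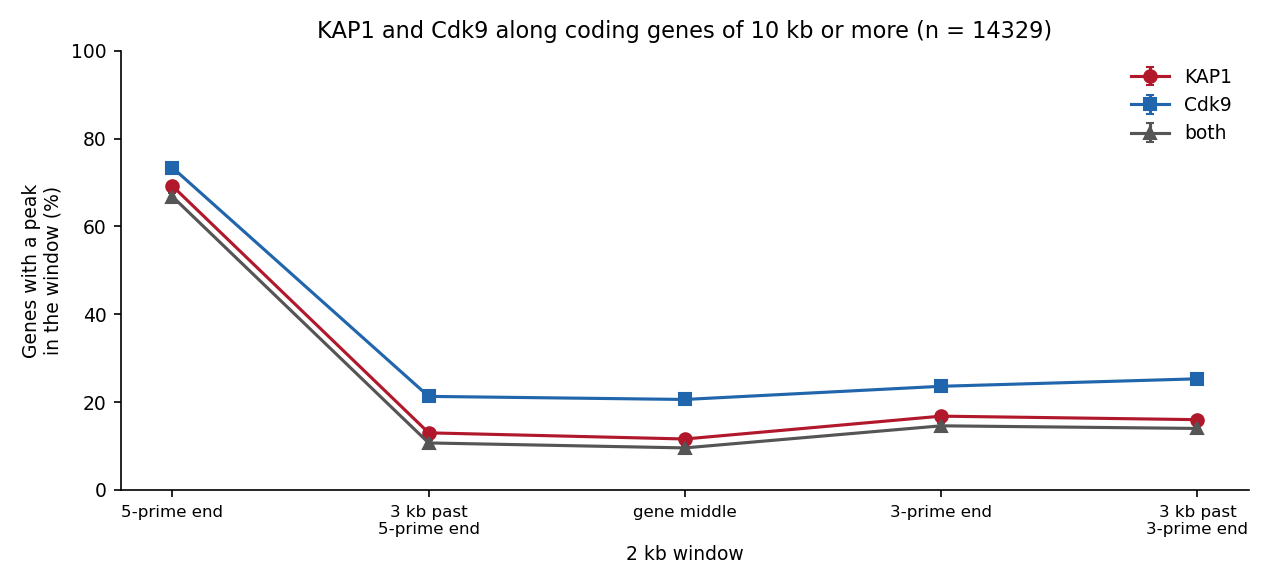
Percent of coding genes of 10 kb or more with a KAP1 peak, a Cdk9 peak or both in 2 kb windows at the 5′ end, 3 kb past it, at the gene middle, at the 3′ end and 3 kb past that; bars are exact 95% intervals. KAP1 is at 69.2% and Cdk9 at 73.4% of 5′ ends, and KAP1 is at 11.6% and Cdk9 at 20.6% of gene middles.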

How the data were processed

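KAP1 and Cdk9 ChIP-seq peak lists of HCT116 cells, 1 library each, were compared, with Pol II, Larp7 and Hexim1 lists of the same series as further marks. The submitters' processing notes name Bowtie 1.1, MACS2 without a version, and the hg19 build. Which control was used, how duplicates were handled, how deep the libraries are and how the caller was set is not given in the sources used here. The deposited lists give, per peak, a fold (a ratio over background) made by the authors, and the −log10 p and −log10 q, also deposited. Folds were used within a list only.

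Coordinates are hg19, 1-based; no peak passed a chromosome end of GRCh37. Genes are from GENCODE release 44 on GRCh37. Peaks on chromosomes 1 to 22 were joined at 1 bp or more with Python 3.11.15, numpy 2.4.6, pandas 2.3.3 and scipy 1.17.1, and the joins were tested on simulated intervals. Exact (Clopper-Pearson) 95% intervals cover counting error; the depth is unknown. With 1 library per antibody no test was run and no p-value is given.

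The members and gene lists were chosen with earlier results of these data known. The rule for named genes took the 8 promoters of highest fold with a single factor and the 6 of each list with both, members of a list with a single factor where at most 5 have it, the genes of the factors, and the 5 unshared and 3 shared peaks of highest −log10 p in each list. For the larger groups other members are named as examples chosen after their values were seen. Certain items named by this rule are left out of the text. The symbols NSDHL and SYP (not autosomal) and H19 (not protein-coding) were not matched. Alternatives were a −log10 q of at least 5, 20000 peaks per list, an overlap of 50% of the shorter peak, 250 bp on each side of the peak middle, chromosomes X and Y added, peaks within 1 kb merged, promoter windows of 500 bp and 2 kb, any transcript start, and, added after seeing the data, a Cdk9 list as long as the KAP1 list. The deposited score was not used.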

Additional observations from a re-analysis of the deposited data

Results flagged for a closer look

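Chromosome X was outside the comparison, which used chromosomes 1 to 22, and both factors had peaks there. Of its 588 KAP1 peaks, 80.8% (exact 95% interval 77.4 to 83.9) overlapped Cdk9, and of its 1375 Cdk9 peaks, 33.9% (31.4 to 36.5) overlapped KAP1. The autosomal shares were 76.3% of KAP1 peaks and 37.8% of Cdk9 peaks. The difference from the autosomes was not tested, since each antibody had 1 library.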

How the results depend on the processing

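No paired analysis was possible because each antibody had 1 library. Of 57 values under alternatives, 31 stayed within the counting interval of the reported value or, for counts, within 1.5 times of it, 25 moved and 1 turned its direction. Depth is unknown, so lists of different length cannot be set on a common depth.

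The share of KAP1 peaks with Cdk9 was 30.2% at a −log10 q of 5 or more, 52.8% with 20000 peaks per list, 72.3% at an overlap of 50% of the shorter peak, 64.8% with 250 bp on each side of the middle and 64.6% with the Cdk9 list cut to the length of the KAP1 list. The share of Cdk9 peaks with KAP1 was 48.5% at that −log10 q, 52.3% with 20000 peaks, 35.8% at 50% overlap, 33.1% with fixed windows, 61.8% with lists of equal length and 37.2% with peaks within 1 kb merged. The median width difference for KAP1 was 330 bp at a −log10 q of 5 or more, 428 bp with 20000 peaks, 346 bp at 50% overlap and 199 bp with fixed windows. For Cdk9 it was 450 bp at a −log10 q of 5 or more and 386 bp with fixed windows. The promoter share of KAP1-only minus Cdk9-only peaks was 9.78 percentage points at a −log10 q of 5 or more, 2.16 with 20000 peaks, 3.52 with fixed windows and 3.72 with any transcript start. KAP1-only promoters numbered 2885 at a −log10 q of 5 or more, 2100 with 20000 peaks and 1010 with lists of equal length. Cdk9-only promoters numbered 730 with lists of equal length. Pol II at KAP1-only minus Cdk9-only promoters turned to −1.89 points with 20000 peaks per list (68.0% of KAP1-only and 69.9% of Cdk9-only promoters). The causes of these moves were not tested, beyond the smaller lists that the −log10 q, 20000-peak and equal-length settings leave by construction.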

Other observations

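Starts of noncoding genes more than 2 kb from any coding 5′ end also had both factors. At 14984 long noncoding RNA starts, KAP1 was at 20.0% (19.4 to 20.7), Cdk9 at 26.1% (25.4 to 26.8) and both at 18.1%. At 2648 microRNA gene starts KAP1 was at 13.1% and Cdk9 at 19.6%, and at 9099 processed pseudogenes KAP1 was at 11.8% and Cdk9 at 17.9%. Small nuclear RNA genes had KAP1 at 3.84% (2.99 to 4.84) and Cdk9 at 10.7% (9.27 to 12.2) of 1771 starts, and small nucleolar RNA genes had KAP1 at 4.89% and Cdk9 at 12.0% of 1329. Many of these small RNA genes and pseudogenes are near-identical copies, so their values are uncertain.

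The overlap varied between chromosomes. Chromosome 19 had the highest share in both directions, with 82.4% of its 4808 KAP1 peaks at Cdk9 and 46.9% of its 7997 Cdk9 peaks at KAP1. The lowest share of KAP1 peaks with Cdk9 was 69.1% on chromosome 10, and the lowest share of Cdk9 peaks with KAP1 was 31.1% on chromosome 15.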
